A study of Mus musculus with 5 samples.

Results

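The genes that build cholesterol and fatty acids were compared between colon spheroids whose Notch1 and Notch2 receptors cannot dimerize and wild-type colon spheroids. The 32 genes were taken by name from a list of sterol and lipid synthesis genes under the control of SREBP transcription factors, out of 32793 gene rows in the tables. All 32 were in the tables, and all 32 had enough counts to be tested.

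The data are bulk RNA-seq of 5 mouse colon spheroid samples, epithelial cultures that grow as hollow balls. Of these, 2 carried the dimerization-deficient alleles Notch1DD and Notch2DD (called NDD here, and RA in the sample titles) and 3 were wild type (WT). All 5 came from mice of a mixed background, mostly C57Bl6 with some FVB. No treatment, age, sex or culture time is given in the labels, and they do not say whether the replicates are separate mice or separate dishes, so the p-values measure only the spread between these libraries. Total estimated counts were 22372029 and 22122748 in NDD and 19192389 to 23064000 in WT.

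Cells keep their sterol level through a feedback loop. When membrane sterol is low, the escort protein Scap carries the SREBP precursors from the endoplasmic reticulum to the Golgi, where they are cut and release a transcription factor. When sterol is high, the Insig proteins hold Scap back. SREBP-2, encoded by Srebf2, mainly drives cholesterol synthesis and uptake, and SREBP-1, encoded by Srebf1, mainly drives fatty acid synthesis. The colon epithelium renews constantly and needs both lipids for new membranes. In this bulk RNA, fewer cells that express a gene and less of its RNA per cell cannot be told apart.

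Promoter sequences were read for the synthesis genes because SREBPs act there, at the sterol regulatory element, beside CCAAT boxes (bound by NF-Y) and GC boxes (bound by Sp1). RefSeq (GRCm38.p6, the assembly also called mm10) gave the 250 bases before a start site for 25 of the 32 genes. The letters TCACNCCAC, searched on both strands as a sterol regulatory element, occurred in 1 of these 25 genes, Hmgcs1, and in 1.22% of all 27025 genes with an entry. CCAAT occurred in 20 of the 25 genes against 37.5% of all genes, and GGGCGG in 21 of the 25 against 35.4%. The E-box CACGTG, a second element that SREBPs can bind, occurred in 5 of the 25 (Scap, Insig1, Hsd17b7, Sc5d and Dhcr7) against 6.86% of all genes. These matches describe the letters and are not shown to be bound sites.

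The promoter of Hmgcs1 is shown because it was the one with the sterol element. Those of Fads2, Fasn and Idi1 are shown because these genes had the lowest p-values among the lower genes with an entry, a choice made after the values were seen. Each runs 5′ to 3′ in the direction of the gene and ends at the base before the start site, with matches on either strand to the 4 motifs in capitals. For Fasn this is an inner start site, so its window lies inside the full span of the gene (chr11:120805958-120825166). The other windows border the span of their gene. Hmgcs1 lies at chr13:119690101-119690350 (plus strand), Fads2 at chr19:10101504-10101753 (minus strand), Fasn at chr11:120824548-120824797 (minus strand) and Idi1 at chr13:8885356-8885605 (plus strand).
Hmgcs1: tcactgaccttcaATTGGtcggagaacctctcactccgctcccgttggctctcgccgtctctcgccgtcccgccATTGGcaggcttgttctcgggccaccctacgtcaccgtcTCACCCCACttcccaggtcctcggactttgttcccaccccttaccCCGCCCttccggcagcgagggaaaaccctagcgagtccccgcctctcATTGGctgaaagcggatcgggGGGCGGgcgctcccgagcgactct
Fads2: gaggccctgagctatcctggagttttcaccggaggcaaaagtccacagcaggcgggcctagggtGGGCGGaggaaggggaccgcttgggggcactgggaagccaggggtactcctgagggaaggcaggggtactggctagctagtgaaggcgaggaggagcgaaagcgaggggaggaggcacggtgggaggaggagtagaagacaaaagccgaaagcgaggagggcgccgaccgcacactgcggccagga
Fasn: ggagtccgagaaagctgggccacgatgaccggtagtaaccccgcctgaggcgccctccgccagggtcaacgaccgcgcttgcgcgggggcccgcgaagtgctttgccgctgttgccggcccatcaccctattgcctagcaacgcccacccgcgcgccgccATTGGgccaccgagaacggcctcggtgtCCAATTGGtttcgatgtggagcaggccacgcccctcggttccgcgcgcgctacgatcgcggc
Idi1: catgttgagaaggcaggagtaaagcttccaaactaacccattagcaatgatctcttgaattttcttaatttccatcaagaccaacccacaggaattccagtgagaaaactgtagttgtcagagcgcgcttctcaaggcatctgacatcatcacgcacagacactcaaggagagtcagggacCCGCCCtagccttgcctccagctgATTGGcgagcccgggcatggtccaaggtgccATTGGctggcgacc
The sterol element of Hmgcs1 begins 137 bases before the start, as TCACCCCAC, and this window also holds 3 CCAAT boxes and 2 GC boxes. Fasn holds 3 CCAAT boxes, of which 2 share the palindrome CCAATTGG, and no GC box. Idi1 holds 2 CCAAT boxes and 1 GC box, and Fads2 1 GC box and no CCAAT box.

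Across the 32 genes the direction was mainly downward in NDD, but no single gene passed the test over the whole table. The test was edgeR's quasi-likelihood test on the counts of all 13501 genes with enough counts. Of the 32, 24 had a fitted log2 fold change (NDD over WT) below 0, against 50.5% of all tested genes. The median was -0.29, and over all tested genes it was -0.0047. None had an edgeR adjusted p under 0.05, against 0.0889% of all genes, and 0.0222% for those lower in NDD. Overlap between groups is judged on CPM for single genes in the text, and on the scale named for sums and in figures. An unadjusted p under 0.05 was found for 8, all lower in NDD, which is 25.0% of the 32 against 4.68% of all genes called lower by that rule. These were Mvk, Idi1, Fdps, Cyp51, Acaca, Fasn, Fads1 and Fads2. The number lower by this rule varied with the library left out: it was 4 without WT replicate 2 (2.72% of all genes), 5 without WT replicate 1 (3.63%) and 8 without NDD replicate 1, where 17.0% of all genes were lower by the same rule. Without WT replicate 3 the number was 6 (2.06%). Without NDD replicate 2, which leaves a single NDD library, it was larger than with all libraries. The CPM values (counts scaled to library size with TMM factors) of both NDD libraries lay below all 3 WT libraries in 14 of the 32 genes, or 43.8%, against 16.2% of all genes, and above them in 0, against 15.8%. DESeq2, run as an alternative, called 4 of the 32 at an adjusted p under 0.05 (Fads1, Fads2, Fasn and Fdps), all lower, and 0 higher. DESeq2 called 2.49% of all genes it tested, 0.984% lower and 1.5% higher. The 3 fits of limma on log2 TPM called 0 of the 32, with 11, 11 and 12 at an unadjusted p under 0.05, all lower, against 4.82%, 4.83% and 3.41% of all genes lower by that rule in those fits.

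**Figure D1:**
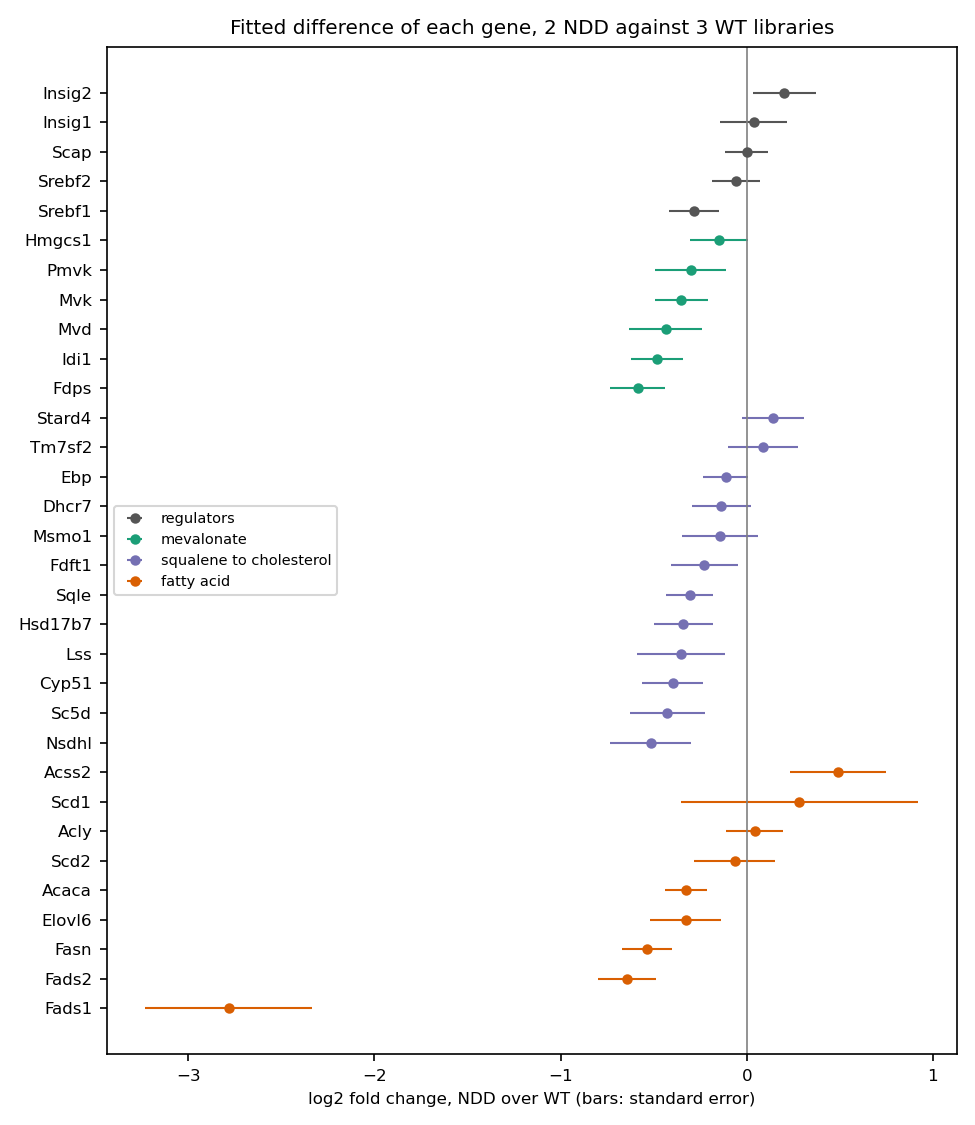
Log2 fold change of each of the 32 genes, NDD over WT, from edgeR (points), with its standard error (bars), coloured by role. Values run from -2.78 for Fads1 to 0.49 for Acss2, and 24 of the 32 points lie left of 0.

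The size of the shift depended on the library. Summed over the 32 genes, TPM, a level scaled for transcript length and library, was 3299 and 3624 in NDD replicates 1 and 2, and 3981, 4353 and 4006 in WT replicates 1 to 3. In TPM both NDD sums lay below every WT sum, at 0.842 times the WT mean. In CPM the sums overlapped, at 6651 and 8061 in NDD and 8207, 8916 and 7977 in WT. The NDD mean was then 0.879 times the WT mean. On the CPM scale NDD replicate 1 was the lowest of the 5 libraries in 17 of the 32 genes, NDD replicate 2 in 9, and WT replicate 2 the highest in 17. On the TPM scale NDD replicates 1 and 2 were the lowest in 13 genes each, and WT replicate 2 was the highest in 14. The median log2 fold change of the 32 genes moved to -0.37 without NDD replicate 2 and to -0.17 without NDD replicate 1, when a single NDD library is left and is assumed to vary like the WT libraries. It was -0.18 without WT replicate 2.

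NDD replicate 2 stood apart from the other libraries. Its Spearman correlation with the other 4 was 0.939 to 0.966, against 0.973 to 0.987 among those 4. The 18 genes of a proliferation list summed to 755 TPM in NDD replicate 2, and to 2056 TPM in NDD replicate 1 and 1987 to 2312 TPM in WT. Genes of the surface colonocyte, the mature absorptive cell, summed to 15980 and 15725 TPM in NDD and to 7939 to 11199 TPM in WT (16 genes). In NDD replicate 1 the proliferation sum was inside the WT range. The surface colonocyte sum of that library was above the WT range, and its sum of the 32 synthesis genes was below. The part of the proliferation and colonocyte differences in these results was not tested. The 10 colon epithelium markers summed to 12600 to 14103 CPM, with none at 0 in every library. Of 8 adipocyte markers, Adipoq, Retn and Cfd had 0 counts in every library, a floor of 0.130 to 0.156 CPM for each library. The list summed to 11.5 and 35.7 CPM in NDD and 3.52 to 8.66 CPM in WT, mostly from Pck1, an enzyme of glucose synthesis that gut epithelium can also express. The 10 fibroblast markers summed to 9.92 and 27.1 CPM in NDD and 4.80 to 9.32 CPM in WT, mostly from Pdgfrb, with Lum and Thy1 at 0 in every library. The 9 immune markers reported here summed to 2.36 to 3.89 CPM in NDD and 4.24 to 5.62 CPM in WT, with Cd4 and Cd8a at 0. Endothelial markers (6 genes) overlapped, at 1.84 to 7.54 CPM in NDD and 2.23 to 2.81 CPM in WT, with Kdr and Emcn at 0. The part of these low levels in the results was not tested.

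**Figure D2:**
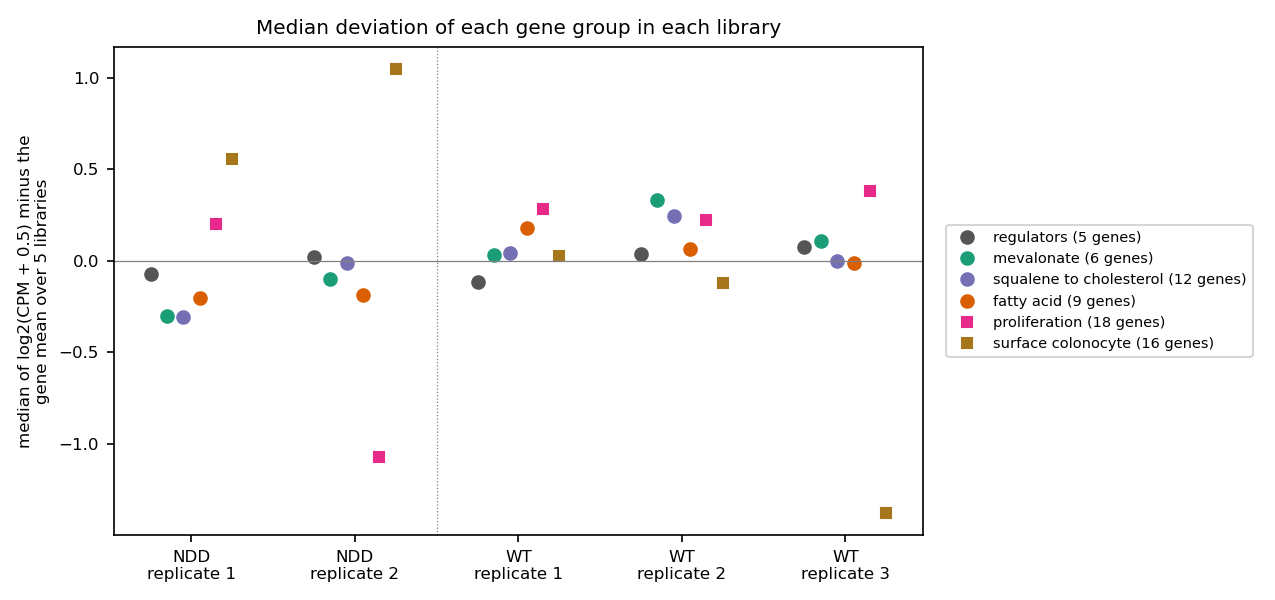
Median over each gene group of log2(CPM + 0.5) minus the gene's mean over the 5 libraries, by library. Circles are the roles among the 32 genes and squares the proliferation and surface colonocyte lists, which differ far more between libraries than the synthesis genes do: proliferation is at -1.07 in NDD replicate 2 and 0.20 in NDD replicate 1.

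The regulators of the loop were the least shifted of the roles, with a median log2 fold change of 0.00028 and 2 of 5 below 0. Srebf2, which encodes the main driver of cholesterol genes, was at 229.9 and 223 TPM in NDD and 221, 255 and 255 TPM in WT. The groups overlapped, and the log2 fold change was -0.06 (standard error 0.13, edgeR adjusted p 0.839). Leaving out WT replicate 2 gave -0.0052, and leaving out WT replicate 1 gave -0.12. Srebf1, which encodes the driver of fatty acid genes, was at 72.6 and 55.8 TPM in NDD and 83.4, 73.4 and 80.6 TPM in WT. Both NDD libraries were below all WT libraries, NDD replicate 1 by a small margin, with a log2 fold change of -0.28 (standard error 0.14, edgeR adjusted p 0.469). Without NDD replicate 1 it was -0.44, and without NDD replicate 2 it was -0.14. Srebf2 exceeded Srebf1 in every library, by at least 2.65 times in TPM.

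Insig1, a retention protein whose own gene is an SREBP target, was at 102 and 119 TPM in NDD and 102, 128 and 100.2 TPM in WT. The groups overlapped (log2 fold change 0.04, SE 0.18). Insig2, the other retention protein, was at 15.7 and 19.2 TPM in NDD and 14.6, 16.0 and 16.0 TPM in WT. NDD replicate 2 was the highest for Insig2 and NDD replicate 1 lay among the WT values (log2 fold change 0.20, SE 0.17, edgeR adjusted p 0.589). The value for Insig2 was 0.018 without NDD replicate 2 and 0.37 with NDD replicate 1 left out. Scap was at 59.0 ± 6.14 TPM in NDD (SD, n = 2) and 60.05 ± 3.82 TPM in WT (SD, n = 3), so the difference was smaller than the spread between replicates.

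The mevalonate steps, which turn acetyl-CoA into the isoprenoid farnesyl diphosphate, were lower in NDD in 6 of 6 genes, with a median log2 fold change of -0.39. The median was -0.25 when NDD replicate 1 was left out. Their summed TPM was 776 and 775 in NDD and 958, 1150 and 1065 in WT, so the groups did not overlap and the NDD mean was 0.733 times the WT mean. WT replicate 2 was the highest library in 6 of the 6 genes in CPM and in 5 in TPM, where Idi1 was highest in WT replicate 3. The largest difference was in Fdps, farnesyl diphosphate synthase, which makes the last product shared by sterols and protein prenylation. It was at 259 and 265 TPM in NDD and 355, 430.2 and 427 TPM in WT. The NDD libraries were nearly equal and below every WT library, with a log2 fold change of -0.59 (standard error 0.15, edgeR adjusted p 0.317, DESeq2 adjusted p 0.0435). It stayed between -0.68 and -0.50 when any 1 library was left out.

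Idi1, the isomerase that makes the reactive isoprene unit, was at 146 and 114 TPM in NDD and 168, 188 and 194 TPM in WT. The groups did not overlap, and the log2 fold change was -0.48 (standard error 0.14, edgeR adjusted p 0.390). Hmgcs1, the synthase that makes HMG-CoA and the gene with the sterol element shown above, was at 195 and 187 TPM in NDD and 199, 245 and 194 TPM in WT. Only WT replicate 2 stood above the rest for Hmgcs1, and the log2 fold change was -0.15 (standard error 0.16) with all libraries and -0.0049 without WT replicate 2. The kinases Mvk and Pmvk and the decarboxylase Mvd had log2 fold changes of -0.35, -0.30 and -0.43. Mvk and Mvd did not overlap between groups, and Pmvk overlapped in CPM though not in TPM. Pmvk moved to -0.15 without NDD replicate 1 or without WT replicate 2, and to -0.46 without NDD replicate 2. Mvd moved to -0.20 without NDD replicate 1 and to -0.71 without NDD replicate 2.

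**Figure D3:**
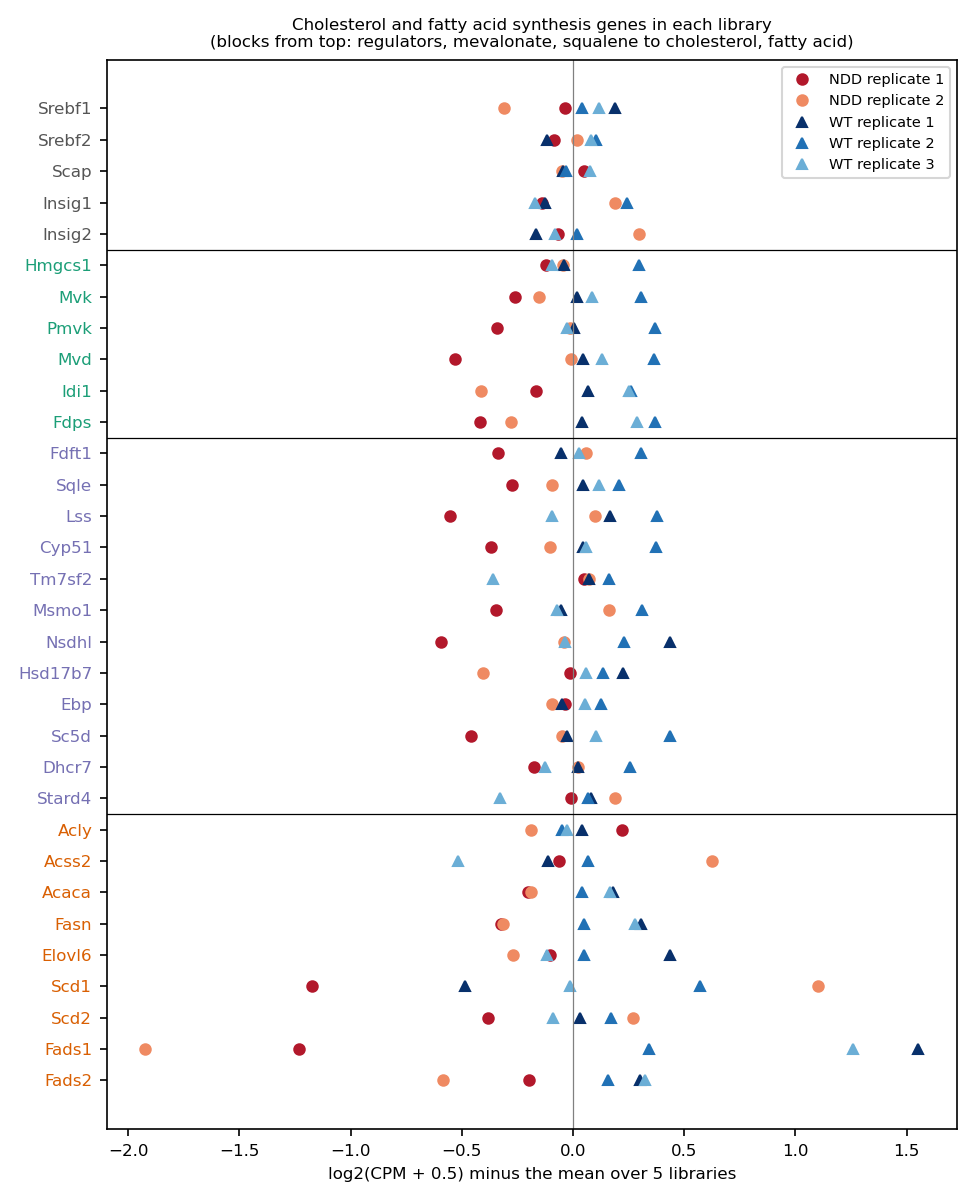
Each of the 32 genes in each library, as log2(CPM + 0.5) minus the gene's mean over the 5 libraries (circles NDD, triangles WT), in blocks by role. WT replicate 2 lies furthest right in 17 of the 32 genes and NDD replicate 1 furthest left in 17.

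The steps from squalene to cholesterol were lower in 10 of 12 genes, with a median log2 fold change of -0.27, and summed to 911 and 1048 TPM in NDD and 1132, 1275 and 1085 TPM in WT. The median was -0.11 without NDD replicate 1, -0.16 without WT replicate 2 and -0.40 without NDD replicate 2. NDD replicate 1 was the lowest library in 8 of the 12 genes on either scale, and WT replicate 2 the highest in 9 in CPM and 8 in TPM. Nsdhl, which removes a methyl group from the sterol ring, showed the largest difference. It was at 64.5 and 87.9 TPM in NDD and 129.9, 109.5 and 95 TPM in WT. The CPM of NDD replicate 2 lay just below that of WT replicate 3, and the log2 fold change was -0.52 (standard error 0.22, edgeR adjusted p 0.456). Leaving out NDD replicate 1 gave -0.27, and leaving out NDD replicate 2 gave -0.80.

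Sqle, squalene epoxidase, the first oxygen-using step and a point of control of the route, was at 124 and 130.3 TPM in NDD and 152, 166 and 162 TPM in WT. The groups did not overlap (log2 fold change -0.31, SE 0.13, edgeR adjusted p 0.448). Msmo1, a methylsterol oxidase and the most abundant gene of these steps, was at 201 and 269 TPM in NDD and 245, 308 and 247 TPM in WT. The NDD libraries lay on both sides of WT replicates 1 and 3, and the log2 fold change of -0.14 (standard error 0.21) became 0.08 without NDD replicate 1.

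Of the other genes of these steps, Cyp51, the lanosterol demethylase, had a log2 fold change of -0.40 (standard error 0.16) with no overlap between groups. Sc5d, a sterol desaturase, was at -0.43 and Hsd17b7, a sterol ketone reductase, at -0.34, both without overlap in CPM (in TPM, NDD replicate 1 lay among the WT values of Hsd17b7). Hsd17b7 was at -0.14 and Sc5d at -0.63 without NDD replicate 2, and Sc5d at -0.24 and Hsd17b7 at -0.56 without NDD replicate 1. Lss, lanosterol synthase, was at -0.35, at -0.07 without NDD replicate 1 and -0.70 without NDD replicate 2. Fdft1, squalene synthase, was at -0.23, Dhcr7, the last reductase, at -0.14, and the isomerase Ebp at -0.11, all with overlapping groups. Fdft1 was at -0.05 without NDD replicate 1 and at -0.43 without NDD replicate 2. Without WT replicate 2, Dhcr7 was at -0.013 and Ebp at -0.057.

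Both genes above 0 in this role were nearly level. Tm7sf2, one of a pair of sterol C14 reductases, was at 47.5 and 45.2 TPM in NDD and 48.1, 48.0 and 35.9 TPM in WT, with WT replicate 3 the lowest (log2 fold change 0.09, SE 0.19). It changed sign without WT replicate 3 (-0.06). Stard4, a carrier that moves sterol between membranes, was at 64.9 and 69.2 TPM in NDD and 67.7, 65.4 and 52.4 TPM in WT, again with WT replicate 3 the lowest (log2 fold change 0.14, SE 0.17). Without WT replicate 3 it was 0.016.

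Fatty acid synthesis and desaturation split into genes that were lower in both NDD libraries and genes that followed single libraries. The median of the 9 genes was -0.33, with 6 below 0. It was -0.15 without WT replicate 1. Fasn, the synthase that builds palmitate, was at 86.6 and 81.0 TPM in NDD and 132, 107 and 131 TPM in WT. The NDD libraries were close together and lay below all WT libraries, with a log2 fold change of -0.53 (standard error 0.14, edgeR adjusted p 0.318, DESeq2 adjusted p 0.0346), between -0.60 and -0.49 when any 1 library was left out. Acaca, the carboxylase that makes malonyl-CoA for Fasn, was at 19.6 ± 0.615 TPM in NDD (SD, n = 2) and 24.7 ± 1.69 TPM in WT (SD, n = 3), without overlap (log2 fold change -0.33, SE 0.11, edgeR adjusted p 0.437). It lay between -0.36 and -0.30 when any 1 library was left out. Elovl6, which lengthens palmitate, was also at -0.33, but its groups overlapped, and it was at -0.15 without WT replicate 1.

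The suppliers of acetyl-CoA varied with the NDD library, and neither passed the test. Acly, which makes acetyl-CoA from citrate, was at 218 and 154 TPM in NDD and 192, 174 and 183 TPM in WT. NDD replicate 1 was the highest library and NDD replicate 2 the lowest, so the log2 fold change of 0.04 (standard error 0.15) moved to -0.18 without NDD replicate 1 and 0.25 without NDD replicate 2. Acss2, which makes it from acetate, was at 74.1 and 110.9 TPM in NDD and 70.4, 77.7 and 53.9 TPM in WT. It had the highest fitted value of the 32 genes (log2 fold change 0.49, SE 0.26, edgeR adjusted p 0.480), with overlapping groups, and was at 0.12 without NDD replicate 2 and 0.79 without NDD replicate 1.

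The desaturases gave both the largest and the most uneven differences. Fads1, the delta-5 desaturase that makes arachidonic acid, was at 3.24 and 1.78 TPM in NDD and 23.4, 9.74 and 19.3 TPM in WT. These values rest on 147 and 81 counts in NDD and 912, 458 and 895 counts in WT. Every NDD library was below every WT library, and WT replicate 2 was the lowest of the WT libraries. The log2 fold change was -2.78 (standard error 0.45), 6.88-fold lower in NDD, with an edgeR adjusted p of 0.147 and a DESeq2 adjusted p of 1.1e-08. It ran from -3.22 without NDD replicate 1 to -2.44 without NDD replicate 2. With the replicate number as a block the edgeR adjusted p was 0.0091. That fit pairs libraries by number, which the labels do not support, and WT replicate 3 has no NDD library to pair with. Departures from the group mean had a correlation of -0.0095 between the libraries numbered 1 and 0.35 between those numbered 2. No 31-base word of the Fads1 transcripts in GENCODE M21 occurs in another gene.

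Fads2, the delta-6 desaturase that acts before Fads1 in the same route, was at 149 and 106 TPM in NDD and 209, 183 and 215 TPM in WT. The groups did not overlap, and the log2 fold change was -0.64 (standard error 0.16, edgeR adjusted p 0.298, DESeq2 adjusted p 0.0378). It was -0.86 without NDD replicate 1, where its edgeR adjusted p was 0.0260 and 1207 of all 14007 genes were called, and -0.45 without NDD replicate 2. Fads2 exceeded Fads1 in TPM by 46.1 and 59.5 times in NDD and by 8.91, 18.8 and 11.1 times in WT.

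**Figure D4:**
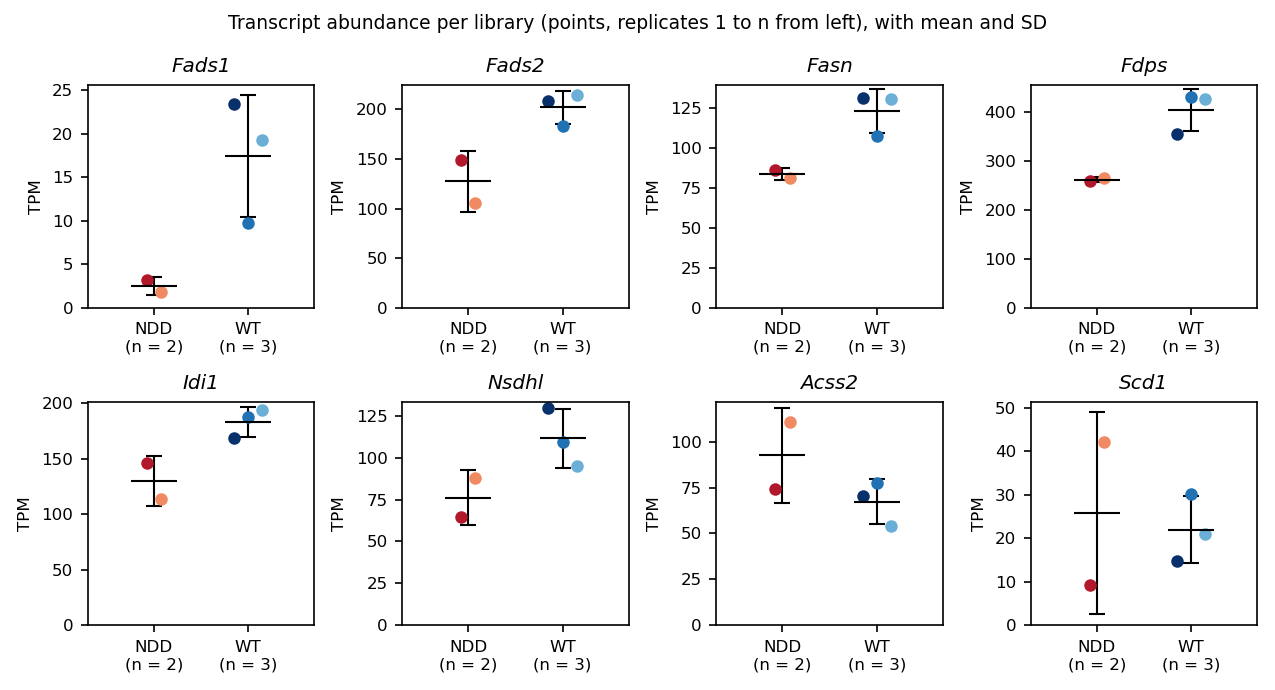
TPM of 8 of the genes in each library (points, NDD red, WT blue), with the group mean and SD. Fads1, Fads2, Fasn, Fdps, Idi1 and Nsdhl are lower in both NDD libraries than in all WT libraries, while Acss2 and Scd1 overlap.

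Scd2, the most abundant of the 32 genes with a mean of 696 TPM, and Scd1 both encode delta-9 desaturases, which make oleate and palmitoleate. Scd2 was at 543 and 793 TPM in NDD and 711, 766 and 666 TPM in WT, so the NDD libraries were the lowest and the highest of the 5. Its log2 fold change of -0.06 (standard error 0.22) moved to -0.41 without NDD replicate 2 and 0.22 without NDD replicate 1. Scd1, too, was lowest in NDD replicate 1 and highest in NDD replicate 2, at 9.28 and 42.3 TPM in NDD and 14.8, 30.2 and 20.9 TPM in WT. Its log2 fold change of 0.28 had the largest standard error of the 32 genes (0.64) and ran from -1.26 without NDD replicate 2 to 1.01 without NDD replicate 1. Scd1 and Scd2 share 8.14% and 6.81% of their 31-base words with other genes, mostly with Scd3, which had at most 4 counts in any library.

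Some other values carry an uncertainty from shared sequence. Other genes or gene models share 27.9% of the 31-base words of Fdps, 18.8% of those of Idi1, 14.3% of those of Fdft1, 12.9% of those of Tm7sf2 and 33.4% of those of Acaca in GENCODE M21. Srebf1, Fdft1, Cyp51 and Acss2 each overlap a well-covered gene on the opposite strand (Rai1, Ctsb, Akap9 and Gss). How shared reads were divided, and whether counting used strand, is not given in the sources used here.

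Genes of the same pathways outside the 32 were read from 6 further lists (112 genes reported here, 98 tested). None had an edgeR adjusted p under 0.05, and 7 were higher and 7 lower at an unadjusted p under 0.05 (6.49% and 4.68% of all genes). DESeq2 called 3 of the 98, a share near the 2.49% of all genes: Acsl4 lower, and Abcg5 and Abcg8 higher. Over the 98 genes the median log2 fold change was 0.04.

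A further list mixed cholesterol synthesis genes outside the 32 with genes of side branches that make other products, such as Fnta, Dhdds and Pdss1. Of the 17 tested and reported here, 12 were lower, with a median of -0.17. The lowest value among these was that of Lbr, a nuclear membrane protein and the other sterol C14 reductase, at 135 and 77.8 CPM in NDD and 146, 135 and 166 CPM in WT. NDD replicate 1 was level with WT replicate 2, below it by less than 0.1 CPM, and NDD replicate 2 was far lower. The log2 fold change was -0.49 (standard error 0.25, edgeR adjusted p 0.477), and it moved to -0.94 without NDD replicate 1 and to -0.13 without NDD replicate 2. The highest was Acat1, a mitochondrial thiolase, at 0.21 (SE 0.15), and at 0.11 without WT replicate 3. The 12 genes that process or degrade SREBPs ran only from -0.32 (Mbtps2, a Golgi protease) to 0.24 (Erlin1, an endoplasmic reticulum protein), with a median of 0.04. Mbtps2 was at -0.19 without WT replicate 3.

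Among the 18 tested genes of sterol uptake, transport and storage reported here the median was 0.04, and the values of both receptors named next rested mainly on NDD replicate 2. Lrp8, a lipoprotein and reelin receptor, was the lowest of them at 48.0 and 14.0 CPM in NDD and 58.7, 46.1 and 59.5 CPM in WT. NDD replicate 1 lay among the WT values, and the log2 fold change of -0.82 (standard error 0.48, edgeR adjusted p 0.496) moved to -0.18 without NDD replicate 2 and -1.97 without NDD replicate 1. Vldlr, a related lipoprotein receptor, had the highest value among those with a mean log2 CPM of at least 2, at 36.2 and 147 CPM in NDD and 33.3, 51.0 and 13.4 CPM in WT. Its groups overlapped, and the log2 fold change of 1.49 (standard error 0.70, edgeR adjusted p 0.466) moved to 0.17 without NDD replicate 2 and 2.17 without NDD replicate 1.

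The list of LXR receptors and sterol efflux genes was higher in 9 of 11 tested genes, with a median of 0.29. Abcg5, one partner of the sterol export pump, was at 7.61 and 7.54 CPM in NDD and 1.76, 1.23 and 1.46 CPM in WT. The NDD libraries were nearly equal and above all WT libraries, with a log2 fold change of 2.35 (standard error 0.29, 5.10-fold higher, edgeR adjusted p 0.0771, DESeq2 adjusted p 9.2e-09). Abcg8, the other partner, was named after its values were seen, at 6.08 and 5.95 CPM in NDD and 1.60, 1.01 and 1.67 CPM in WT (log2 fold change 2.07, SE 0.33, edgeR adjusted p 0.147). Its mean log2 CPM of 1.75 is below the limit of 2 used to name genes of the further lists. Lpcat3, which puts polyunsaturated fatty acids into phospholipids, was the lowest of this list at -0.44 (SE 0.11, edgeR adjusted p 0.318), with no overlap. Below the limit of 2, other lists also held large values in both directions. Mogat2, a glycerolipid gene, was at -2.02 (SE 0.64, edgeR adjusted p 0.413), without overlap. Soat2, of the sterol storage list, was at 1.89 (SE 0.75, edgeR adjusted p 0.439), with overlap, and at 0.038 without NDD replicate 2.

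Fatty acid synthesis and elongation genes outside the 32 had a median of -0.11 over 20 tested. Elovl5, which lengthens the products of Fads2, was the lowest of them at -0.52 (SE 0.17, edgeR adjusted p 0.417), with no overlap between groups. Acacb, the mitochondrial carboxylase, was the highest of those with a mean log2 CPM of at least 2, at 0.68 (SE 0.72), spread from 3.73 to 23.8 CPM within WT. It moved to 1.79 without WT replicate 1 and to 0.26 without WT replicate 3. In the list of fatty acid activation and glycerolipid genes (20 tested, median 0.12), Acsl4, which activates arachidonic acid, was at 17.9 and 16.7 CPM in NDD and 30.7 to 34.1 CPM in WT. Each group was tight and they did not overlap, with a log2 fold change of -0.90 (standard error 0.14, edgeR adjusted p 0.132, DESeq2 adjusted p 6.8e-05). Agpat4, an acyltransferase of phospholipid synthesis, was the highest at 0.97 (SE 0.28, edgeR adjusted p 0.386).

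**Figure D5:**
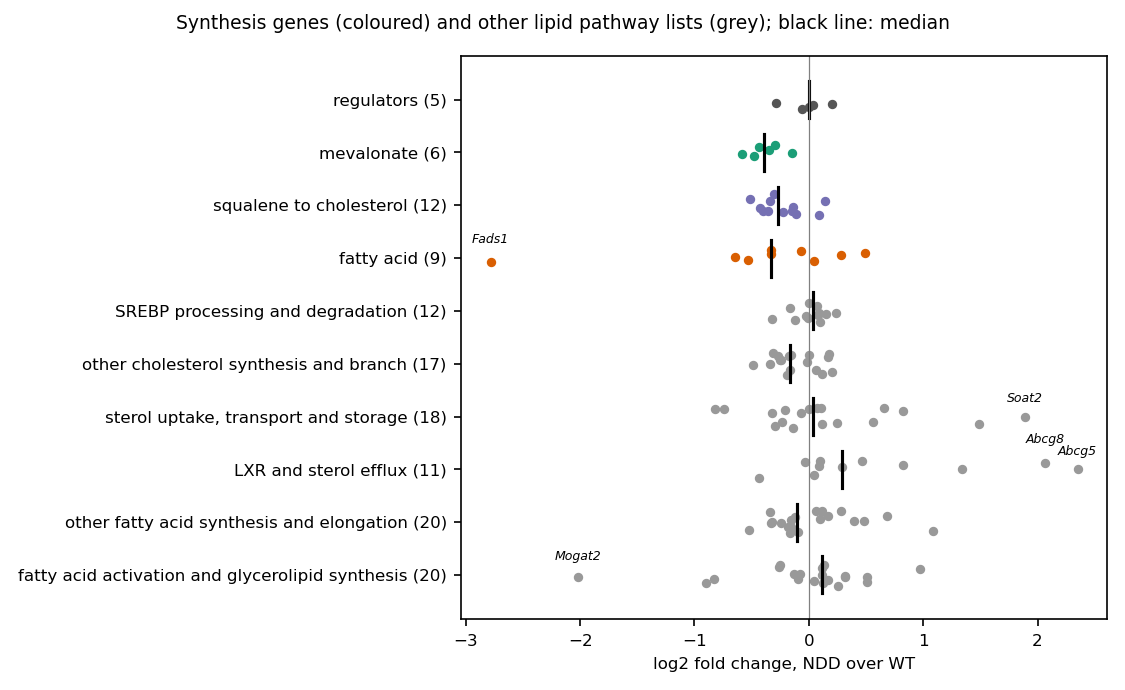
Log2 fold change, NDD over WT, of the 32 synthesis genes by role (coloured) and of the 98 tested genes of 6 other lipid lists (grey), with the median of each list (black line) and the number of genes in brackets. Fads1 at -2.78 lies far left of the other genes of its role, and Abcg5 at 2.35 and Abcg8 at 2.07 are the points furthest right.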

How the data were processed

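Estimated counts per gene (whole numbers, not normalized) and TPM (scaled by the authors for length and library) were deposited by the authors in a table each. The submitters' processing notes name Bowtie2, RSEM and mm10. Versions, annotation and the handling of shared reads are not given in the sources used here. Per the labels' protocols, the libraries were stranded mRNA libraries.

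Groups and replicate numbers came from the titles. The main test was edgeR 4.0.16 (R 4.3.3): quasi-likelihood, robust prior, TMM factors, filterByExpr, all 5 libraries, no covariate, Benjamini-Hochberg over 13501 genes, called at an adjusted p under 0.05. Fold changes use a prior count of 0.125, and the standard error is the log2 fold change over the square root of F. Lists have counts and medians and no test. Alternatives were RLE factors, other count filters, DESeq2 1.42.0, limma 3.58.1 on log2(TPM + 1) or log2(TPM + 0.1), a replicate block, and leaving out each library. A count of 0 allows 3 counts at 95% confidence, counting error only. The code was tested on simulated counts.

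The genes and lists were chosen with earlier results of these data known. Values in every library are given for Srebf1, Srebf2, the 5 highest and 5 lowest fold changes, and the 2 most abundant genes of each role. Idi1, Abcg8, Mogat2, Soat2 and the promoters other than that of Hmgcs1 were added after their values were seen. Of each further list the highest and lowest fold change at a mean log2 CPM of at least 2 is named. Some genes of the further lists and markers are not reported here, and the counts, sums and medians leave them out.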

Additional observations from a re-analysis of the deposited data

How the results depend on the processing

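Medians of the 32 genes and of each role moved by less than the spread between replicates under RLE factors, other filters, DESeq2, limma and the replicate block. Leaving out 1 library at a time gave medians from -0.37 to -0.17 for the 32 genes, -0.097 to -0.0025 for regulators, -0.45 to -0.25 for mevalonate genes, -0.40 to -0.11 for squalene to cholesterol genes and -0.41 to -0.15 for fatty acid genes, and ratios of summed TPM from 0.802 to 0.881 for the 32 genes and 0.816 to 0.961 for fatty acid genes. Genes called in the whole table numbered 12, and 58 with no filter, 4 with 10 counts in every library, 33 with the replicate block, 361 with DESeq2 and between 0 and 1207 when 1 library was left out. The 0 came without WT replicate 1 (1211 at an unadjusted p under 0.05) and the 1207 without NDD replicate 1. Calls among the 32 were 0 in edgeR, 1 with the replicate block (Fads1), 4 with DESeq2 and between 0 and 1 when 1 library was left out (Fads2, without NDD replicate 1). Calls in the further lists were 0 in edgeR, 3 with DESeq2, 1 with no filter, 0 with the replicate block and between 0 and 8 when 1 library was left out (8 without NDD replicate 1). The cause of these gaps was not tested.

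Of the 32 genes, 25 kept their sign under every setting run. Scap was at -0.0042 with no filter, -0.0039 with DESeq2 and -0.028 in the TPM fits. Scd1 was at -0.066 on log2(TPM + 1), -0.085 on log2(TPM + 0.1) and -0.075 with the replicate block, which also gave -0.037 for Insig1 and -0.057 for Tm7sf2. Without 1 library Scap ran from -0.057 to 0.063, Insig1 from -0.12 to 0.19, Tm7sf2 from -0.059 to 0.20, Msmo1 from -0.41 to 0.081, Acly from -0.18 to 0.25, Scd1 from -1.26 to 1.01 and Scd2 from -0.41 to 0.22. Across genes, the departures from the group mean had a correlation of -0.0095 between both libraries numbered 1 and 0.35 between those numbered 2. The labels give no pairing, and none was assumed.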

Other observations

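Fads1 and Fads2 lie side by side on chromosome 19 with Fads3, so the other genes there were read as well, a choice made after the values were seen (RefSeq, GRCm38.p6). Fads3 (chr19:10040855-10060113), a related desaturase, was at 24.3 and 31.5 CPM in NDD and 30.2, 33.3 and 40.8 CPM in WT (log2 fold change -0.32, SE 0.20, edgeR adjusted p 0.507). The value for Fads3 was -0.15 with NDD replicate 1 left out and -0.51 with NDD replicate 2 left out. Fads2 (chr19:10062765-10101503) was at -0.64 and Fads1 (chr19:10182877-10196874) at -2.78. Fen1 (chr19:10199132-10204393), a nuclease of DNA replication, was at 59.1 and 17.3 CPM in NDD and 53.3 to 69.1 CPM in WT (log2 fold change -0.71, SE 0.48, edgeR adjusted p 0.525). Fen1 was low in NDD replicate 2 alone. That library also had the lowest proliferation sum, and a link between them was not tested. Tmem258 was at -0.45 (SE 0.24), Dagla at 0.28 (SE 0.34) and Fth1, the ferritin heavy chain, at 0.33 (SE 0.22). Within this window of 100000 bases on either side, none of the other tested genes had a difference near the size of that in Fads1.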
